A study of Mus musculus with 12 samples.

Results

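The early response to LPS was measured by comparing macrophage-rich cells after 4 hr of stimulation with the same kind of cells left unstimulated. The comparison used the 8 libraries labelled 0 hr or 4 hr, of the 12 in the series, with genotype as a covariate, and was chosen by these labels and not by any measured value. The series is an RNA-seq study of thioglycollate-elicited PECs, which are cells washed out of the peritoneum of C57BL/6 mice after an irritant was injected. WT mice were compared with *Zc3h12a* S513A/S513A knock-in mice (S513A), made by CRISPR/Cas9 editing of fertilized eggs, in which a serine of Regnase-1 is replaced by alanine. The cells were collected, cultured and stimulated with LPS at 100 ng/ml, and 2 libraries were made from each genotype at each time. The 4 groups used here were thus unstimulated WT, unstimulated S513A, WT at 4 hr of LPS and S513A at 4 hr of LPS, and all 4 had been elicited with thioglycollate and cultured. The labels do not say whether the libraries of a group came from separate mice, so the p values measure the spread between these libraries, which may be technical. Standard errors (SE) and p values come from limma. Of 12850 listed genes, 11763 had at least 1 CPM (reads of a gene scaled to a common library size) in at least 2 of the 8 libraries and were tested.

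LPS, a component of the outer membrane of Gram-negative bacteria, is bound by CD14 and MD-2 and recognised by TLR4. TLR4 signals from the plasma membrane through MyD88 and IRAK kinases to NF-κB and MAP kinases, and from endosomes through TRIF to IRF3 and the type I interferons, which then act back on the cell through JAK and STAT proteins. In macrophages this leads to transcription of cytokines, chemokines and antiviral genes, while feedback inhibitors such as IκB proteins and A20 are made and RNases such as Regnase-1 degrade inflammatory mRNAs.

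The promoters of 7 genes that the results turn on hold matches to motifs of these factors or a TATA box, and are shown for that reason. The stretches below lie upstream of the start sites of genes that were higher at 4 hr and were copied from the RefSeq promoter windows, which are on GRCm38.p6 and run from 250 bases before to 50 bases after a start. They are written from 5′ to 3′ on the strand of the gene, in lower case, with the letters that matched a motif in capitals. The motifs, searched on both strands, were the NF-κB consensus by name, the core of the interferon-stimulated response element (ISRE, GAAANNGAAA), the AP-1 site TGANTCA and the TATA box TATAAA. In all 32851 windows, 4.51% held the NF-κB consensus, 3.44% the ISRE core, 7.81% the AP-1 site and 13.6% the TATA box.
Il6, chr5:30012864-30013089, plus strand: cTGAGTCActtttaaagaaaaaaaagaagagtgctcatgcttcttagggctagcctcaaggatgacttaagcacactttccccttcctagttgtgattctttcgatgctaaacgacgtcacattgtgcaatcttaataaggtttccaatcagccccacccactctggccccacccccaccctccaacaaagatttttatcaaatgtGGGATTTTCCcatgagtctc
Cxcl10, chr5:92348947-92349112, minus strand: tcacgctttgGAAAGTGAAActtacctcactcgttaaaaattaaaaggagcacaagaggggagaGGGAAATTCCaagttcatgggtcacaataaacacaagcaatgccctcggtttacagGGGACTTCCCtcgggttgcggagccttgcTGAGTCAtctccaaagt
Nfkbia, chr12:55492657-55492686, minus strand: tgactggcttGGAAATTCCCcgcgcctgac
Ifit1, chr19:34640775-34640823, plus strand: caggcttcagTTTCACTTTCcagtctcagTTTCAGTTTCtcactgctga
Isg15, chr4:156200865-156200906, minus strand: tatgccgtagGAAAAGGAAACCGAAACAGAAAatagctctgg
Tnf, chr17:35202021-35202046, minus strand: ccccaagggcTATAAAggcggccgtc
Il1b, chr2:129371155-129371180, minus strand: tttttaggacTATAAAacaagggagg

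Positions are counted from the start site, with -1 as the base before it, and a match begins at the first position given. In *Il6* the capitals mark an AP-1 match at -249 to -243, which reads as the motif on both strands, and an NF-κB match at -44 to -35. In *Cxcl10* they mark an ISRE core at -213, NF-κB matches at -159 and -103 and an AP-1 match at -74. In *Nfkbia* an NF-κB match on the opposite strand begins at -29, and a TATA box match on the opposite strand lay past the printed stretch, after the start. The capitals in *Ifit1* mark ISRE cores on the opposite strand at -104 and -85, and those in *Isg15* mark 3 overlapping cores at -78, -72 and -66. The stretches of *Tnf* and *Il1b* hold a TATA box match at -29 and -31. No motif was found in the windows of *Il12b*, *Ptgs2* and *Zc3h12a*, which says only that these letters are absent there, and no window was given for *Nfkbiz*. A comparison of motif shares between changed and unchanged genes was void, because a window was given for only 76.8% of the genes that rose and 75.4% of those that fell beyond 2-fold.

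Depth was similar in the 8 libraries, with 9812085 to 12439960 reads on the listed genes. A floor of 3 reads lay at -2.04 to -1.30 on the log2 CPM scale, and floors and counting intervals cover counting error only. Of the 8 macrophage markers, 8 were listed, and their summed level was 25470 to 30260 CPM at 0 hr and 23260 to 31490 CPM at 4 hr. Most of this sum was *Lyz2*, at a mean of 17182 CPM at 0 hr and 16751 CPM at 4 hr. The summed markers of other cells were low at both times, as 20.3 to 54.3 CPM at 0 hr and 45.4 to 108 CPM at 4 hr for neutrophils (2 of 10 markers listed, neither *Ly6g* nor *S100a9*), 10.9 to 16.9 and 19.8 to 23.9 CPM for B cells (6 of 8 listed), and 1.12 to 2.08 and 1.56 to 2.64 CPM for T and NK cells (2 of 11 listed). Resident peritoneal macrophage markers summed to 51.9 to 94.3 CPM at 0 hr and 84.9 to 218 CPM at 4 hr, eosinophil markers to 18.0 to 19.8 and 8.77 to 12.3 CPM, mast cell markers to 3.40 to 5.19 and 4.53 to 5.86 CPM, dendritic cell markers to 3.73 to 5.75 and 2.27 to 3.48 CPM, and mesothelial and fibroblast markers to 14.2 to 43.1 and 16.4 to 54.6 CPM. In this order, 7 of 8, 3 of 7, 5 of 7, 3 of 6 and 7 of 8 markers were listed. Markers that were not listed add nothing to a sum, so low sums with many missing markers do not show that a cell type was rare. In bulk RNA, fewer cells of a type and less RNA per cell cannot be told apart, and the part of these cells in the results was not tested. Replicates differed more at 4 hr than at 0 hr, with an SD of the log2 difference of 0.40 (WT) and 0.29 (S513A) at 4 hr against 0.21 and 0.16 at 0 hr, over the 8367 genes whose log2 CPM averaged 3 or more. The second WT library at 4 hr stood apart from the other libraries of that time on the second principal component (-27.5, against -1.78 to 20.2), which held 10.5% of the variance. The first component held 85.6% and separated the times, from -45.0 to -39.5 at 0 hr and from 39.1 to 46.9 at 4 hr.

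At 4 hr, 3482 genes (29.6% of those tested) were higher and 3227 (27.4%) were lower than at 0 hr at a limma adjusted p below 0.05. A stricter test, for a change larger than 2-fold, was passed by 780 genes (6.63%) that rose and 500 (4.25%) that fell. The 4 libraries at 4 hr all lay above the 4 at 0 hr for 2944 of the genes that rose (84.5%) and all below them for 2688 of those that fell (83.3%). The most extreme changes were more often rises, since the fitted log2 fold change exceeded 3 in 279 genes that rose and 89 that fell, and 5 in 79 and 2 genes. The typical rise was not larger than the typical fall, with a median log2 fold change of 0.69 among genes called higher and -0.79 among genes called lower. Of the tested genes, 274 had reached 1 CPM only in libraries at 4 hr and 301 only in libraries at 0 hr, so a difference in these was partly set by the filter and its p value is no independent support. Of the genes named below, these were *Cxcl10*, *Il6*, *Il12b*, *Il12a*, *Il27*, *Il23a*, *Csf3*, *Edn1*, *Nos2*, *Ch25h*, *Nr4a3*, *Dll1*, *Iigp1*, *Tgtp1*, *Tgtp2*, *Plet1* and *Shisa3* for 4 hr, and *Cd28*, *E2f2*, *Fhdc1*, *Nt5e*, *Stab2*, *Tcp11l2* and *Zfp395* for 0 hr. The log2 values are relative to a library size that the authors adjusted by a factor of 1.06 to 1.15 at 0 hr and 0.877 to 0.973 at 4 hr. Scaled by total reads instead, 2187 genes were higher and 4987 lower, which turns the share of calls that are higher from 51.9% to 30.5% and moves the median log2 fold change of all genes from 0.01 to -0.24. Beyond 2-fold, total-read scaling called 618 genes higher and 741 lower. In what follows, a value in brackets after a gene is its log2 fold change, 4 hr over 0 hr, and small changes are relative to the adjusted library size. Counts in a list of genes are to be read against the 29.6% higher and 27.4% lower of all tested genes. Without the second WT library at 4 hr, 3585 genes were higher and 3285 lower.

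**Figure D1:**
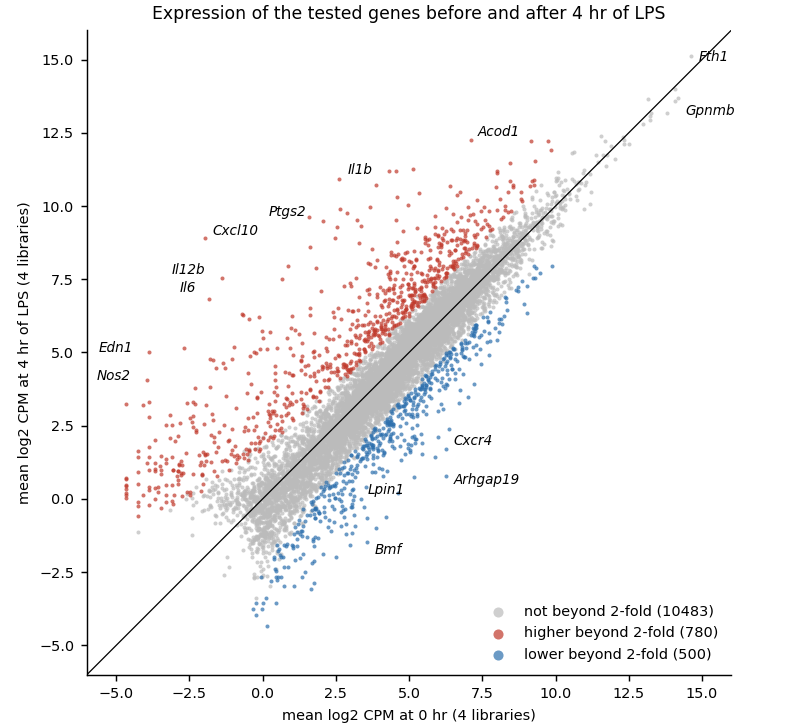
Mean log2 CPM of each of the 11763 tested genes at 0 hr (horizontal axis) and at 4 hr of LPS (vertical axis), each a mean of 4 libraries, with the line of equal levels. Red points are the 780 genes higher and blue points the 500 genes lower beyond 2-fold; *Cxcl10*, *Il12b*, *Edn1* and *Il6* lie at the upper left and *Arhgap19* and *Bmf* at the lower right.

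The 780 genes that rose beyond 2-fold took 3.39% to 3.70% of a library's reads at 0 hr and 15.7% to 17.0% at 4 hr. The 500 genes that fell beyond 2-fold took 2.97% to 3.35% of the reads at 0 hr and 0.646% to 0.854% at 4 hr. The largest gain in CPM was in *Fth1*, the heavy chain of the iron store ferritin, at 25690 CPM at 0 hr and 36386 CPM at 4 hr, although its libraries overlapped between the times and its log2 fold change was 0.50 (SE 0.17, limma adjusted p = 0.0273). It was followed by *Acod1*, *Clec4e*, *Plek* and *Prdx1*. *Plek* (pleckstrin, a protein kinase C substrate) went from 570 to 4779 CPM, and *Clec4e* (Mincle, a receptor for mycobacterial glycolipid) from 884 to 4802 CPM. *Prdx1*, a peroxidase, rose by 0.51 on the log2 scale with libraries that overlapped, and neither *Fth1* nor *Prdx1* passed the test under total-read scaling. The largest losses in CPM were in *Gpnmb* (-0.52), *Ctsd* (-0.63), *Psap* (-0.49), *Ctsb* (-0.30) and *Lgals3* (-0.42), given with their log2 fold changes, of which *Ctsd*, *Ctsb* and *Psap* encode proteins of the lysosome. Under quantile normalization *Gpnmb*, *Psap* and *Ctsb* were not called. *Ctsb* also lost its call without the filter, without the genotype term and with a replicate block. Reads of *Fth1* can be shared with its many processed copies, so its level is uncertain.

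**Figure D2:**
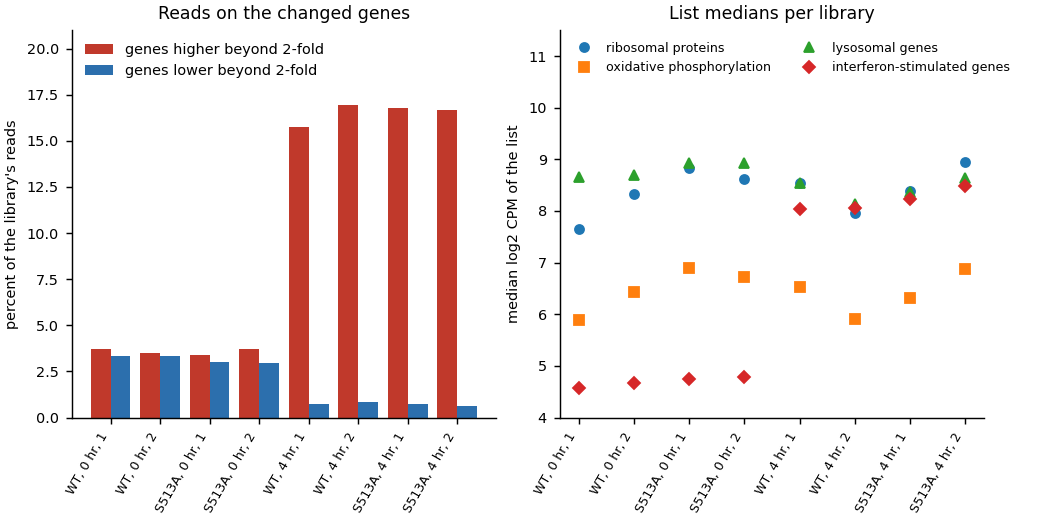
Left, percent of each library's reads (bars from 0) on the genes higher (red) and lower (blue) beyond 2-fold; the red bars stand at 3.39% to 3.70% in the 0 hr libraries and 15.7% to 17.0% in the 4 hr libraries. Right, median log2 CPM per library of 4 gene lists; only the interferon-stimulated genes separate the times without overlap upward, at 4.57 to 4.78 at 0 hr and 8.03 to 8.48 at 4 hr, and the lysosomal genes at 8.65 to 8.94 lie above their 4 hr values of 8.13 to 8.64.

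Receptors and adaptors of the LPS pathway mostly rose. Of 33 tested genes of LPS recognition and Toll-like receptor signalling, 22 were higher, 4 were lower and 7 did not pass the test, with a median log2 fold change of 0.67 against 0.01 for all tested genes. *Cd14*, the co-receptor that hands LPS to TLR4, had a log2 CPM of 6.51 and 6.49 in WT and 6.66 and 6.83 in S513A PECs at 0 hr, and 10.59 and 10.03 in WT and 10.33 and 10.55 in S513A PECs at 4 hr. All 4 stimulated libraries lay above the unstimulated ones, and its log2 fold change was 3.75 (SE 0.12, limma adjusted p = 1.64e-09). *Tlr4* itself was at 5.81 and 5.74 in WT and 5.74 and 5.73 in S513A PECs at 0 hr, and 5.32 and 5.46 in WT and 5.54 and 5.44 in S513A PECs at 4 hr. It was lower at 4 hr by a small margin, with a log2 fold change of -0.31 (SE 0.08, limma adjusted p = 0.00611). *Ly96*, which encodes MD-2, did not pass the test (0.18, limma adjusted p = 0.432). Among the other receptors, *Tlr2* (2.81), *Tlr1* (2.02) and *Tlr3* (1.69) rose, which sense bacterial lipoproteins (*Tlr2* together with *Tlr1*) and double-stranded RNA (*Tlr3*). The adaptor *Myd88* rose by 1.67, *Traf1*, an adaptor of TNF receptors, by 4.24, and *Irak3*, a kinase-dead inhibitor of the pathway, by 2.55. The IRAK kinases did not move together, since *Irak2* rose (1.53), *Irak4* fell (-0.38) and *Irak1* did not pass the test (-0.11, limma adjusted p = 0.312). *Irak1* was called lower under total-read scaling (-0.36) and under quantile normalization (-0.38).

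Genes of the NF-κB system rose with 1 exception. Of 18 genes for NF-κB subunits, IκB proteins and their regulators, 17 were higher, 0 were lower and *Tnip2* did not pass the test, with a median log2 fold change of 1.94. The largest rise was in *Nfkbiz*, an atypical IκB protein that promotes secondary-response genes such as *Il6*, with log2 CPM values of 3.93 and 3.55 in WT and 3.47 and 3.75 in S513A PECs at 0 hr, and 7.94 and 8.12 in WT and 8.03 and 8.00 in S513A PECs at 4 hr. Its groups were far apart, and its log2 fold change was 4.34 (SE 0.11, limma adjusted p = 2.97e-10), or 20.3-fold. The precursors *Nfkb2* (3.14) and *Nfkb1* (2.77) and the inhibitor *Nfkbia* (IκBα, 2.84) followed, all called beyond 2-fold. *Nfkbia* was at 5.97 to 6.43 log2 CPM at 0 hr and 8.90 to 9.14 at 4 hr. Smaller rises were seen in *Tnfaip3* (A20, a ubiquitin-editing inhibitor, 2.18), in the subunit *Rela* (1.33) and in the kinase genes *Ikbkb* (0.61) and *Chuk* (0.43). Under total-read scaling the list had 16 higher and 1 lower, so its smallest calls depend on the scaling, with *Chuk* no longer called.

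Cytokine mRNAs rose steeply. Of 25 tested inflammatory cytokines and growth factors, 24 were higher and 1 was lower, and the median log2 fold change was 5.06. In 6 of these genes no unstimulated library had more than 3 reads, and with these at their bound the median was 3.17. The share that was higher was 96.0%, against 29.6% of all tested genes. This count was partly set by the filter. The 6 genes at the bound, *Il23a*, *Csf3* and *Edn1* among them, reached 1 CPM only in libraries at 4 hr. So did at least *Il6*, *Il12b*, *Il12a* and *Il27*. The single gene that fell was *Vegfa* (-2.70), the vascular growth factor. *Il10*, *Csf2* and *Ifnb1* were not analysed here.

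*Il6* (Entrez gene 16193; chromosome 5, 30013114 to 30019975 on GRCm38), a cytokine of the acute-phase response, was almost unread before stimulation, with 8 and 1 reads in WT and 3 and 3 in S513A PECs. At 4 hr it had 1361 and 903 reads in WT and 1003 and 1420 in S513A PECs. Its log2 CPM at 4 hr was 6.90 and 6.38 in WT and 6.63 and 7.37 in S513A PECs, and the log2 fold change was 8.65 (SE 0.41, limma adjusted p = 3.2e-08), in a gene that entered the test through its 4 hr libraries. *Tnf* (chromosome 17, 35199367 to 35202007), a cytokine that macrophages release early, was already present at 0 hr, at 4.90 and 4.88 in WT and 5.21 and 5.61 in S513A PECs. At 4 hr it was at 11.15 and 11.07 in WT and 11.44 and 11.45 in S513A PECs, and the log2 fold change was 6.12 (SE 0.10, limma adjusted p = 3.4e-11). *Il1b* (chromosome 2, 129364569 to 129371164), whose product is cleaved by the inflammasome before release, had log2 CPM values of 3.06 and 2.24 in WT and 2.31 and 2.79 in S513A PECs at 0 hr, and 11.08 and 10.51 in WT and 10.84 and 11.20 in S513A PECs at 4 hr. The groups did not overlap, and the log2 fold change was 8.31 (SE 0.20, limma adjusted p = 2.9e-10). *Il12b* (chromosome 11, 44400063 to 44414677), the shared chain of IL-12 and IL-23, had 5 and 3 reads in WT and 4 and 6 in S513A PECs at 0 hr and 2155 and 1931 reads in WT and 1807 and 1794 in S513A PECs at 4 hr. The groups lay far apart, with a log2 fold change of 8.93 (SE 0.17, limma adjusted p = 6.08e-11), and the gene entered the test through its 4 hr libraries. *Edn1*, the vasoconstrictor endothelin-1, had 2 reads in the 4 unstimulated libraries together and 1342 in the 4 stimulated ones, a ratio of 829 with a 95% counting interval of 229 to 6850. Other cytokines named after their values were seen were *Il12a*, the partner chain of IL-12 (6.98), *Il27* (6.98) and the inhibitor *Il1rn* (1.79). *Csf3* (G-CSF) had 1 to 3 reads per library at 0 hr and 74 to 126 at 4 hr, and *Il23a*, the partner chain of IL-23, had 0 to 0 reads per library at 0 hr and 10 to 19 at 4 hr.

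**Figure D3:**
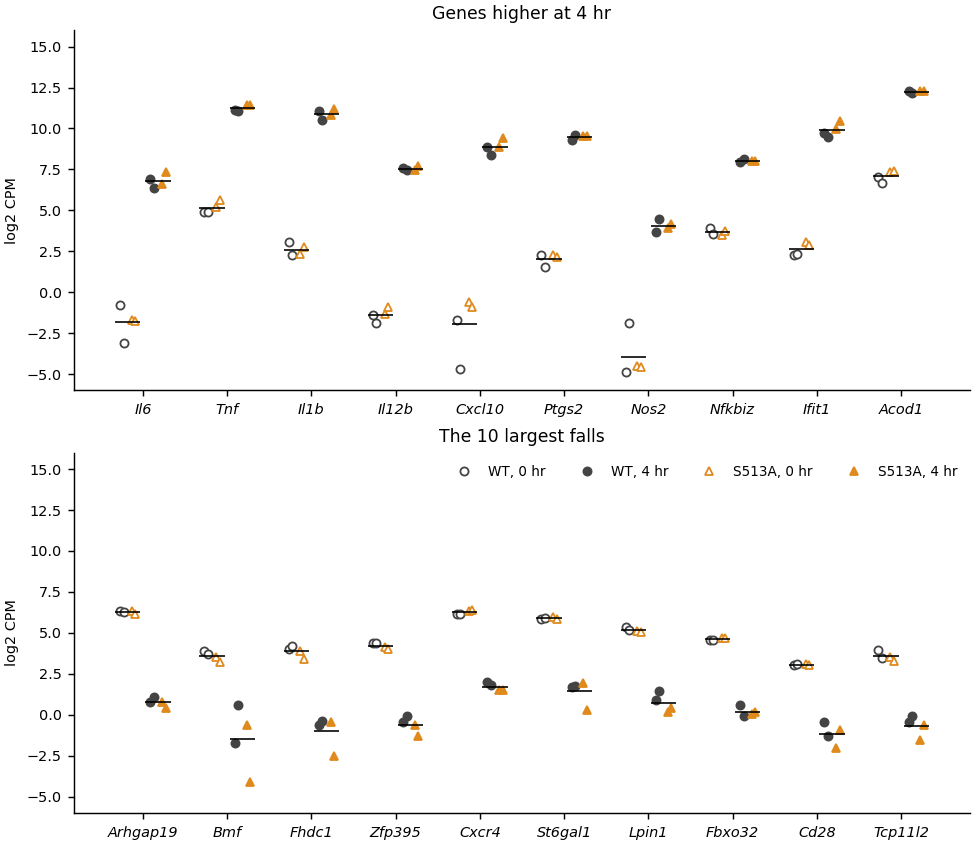
Log2 CPM of 10 genes that were higher at 4 hr (top) and of the 10 largest falls (bottom) in each of the 8 libraries. Circles are WT and triangles S513A, open at 0 hr and filled at 4 hr, and lines are means of 4 libraries; no gene shown overlaps between times, and the unstimulated values of *Il6*, *Cxcl10* and *Nos2* below -2.04 stand for 3 reads or fewer.

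Chemokines that draw neutrophils and T cells rose steeply. Of 21 tested CXC and CC chemokines, 16 were higher, 2 were lower and 3 did not pass the test, with a median log2 fold change of 3.47, or 3.42 with a gene at the floor set to its bound. The shares were 76.2% and 9.52%, against 29.6% and 27.4% of all tested genes. This count was partly set by the filter, since *Cxcl10* and the gene at the floor reached 1 CPM only in libraries at 4 hr. *Cxcl10* (chromosome 5, 92346638 to 92348889), which attracts T cells through CXCR3, had the largest rise of all tested genes. It had 4 and 0 reads in WT and 7 and 6 in S513A PECs at 0 hr and 5271 and 3683 reads in WT and 4801 and 5930 in S513A PECs at 4 hr. The groups lay far apart, with a fitted log2 fold change of 10.86 (SE 0.58, limma adjusted p = 7.56e-08), whose size depends on the 0.5 read added before the log, and the gene reached 1 CPM at 4 hr only. The neutrophil attractants *Cxcl2* (6.88), *Cxcl3* (6.84) and *Cxcl1* (6.72) rose nearly alike. The log2 CPM of *Cxcl2* was 3.88 to 4.76 at 0 hr and 10.96 to 11.47 at 4 hr, with a limma adjusted p of 1.85e-11. Of the CC chemokines, *Ccl4* (6.46), *Ccl5* (5.72), *Ccl3* (5.11) and *Ccl2* (3.47) rose. *Ccl6* fell (-0.45) with overlapping libraries, and was not called without the genotype term, without the intensity trend or with all 12 libraries in the fit. *Pf4* (0.37) and *Cxcl12* (0.14) did not pass the test.

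The receptors for such signals split in direction. Of 15 tested chemoattractant receptors, 8 were higher, 7 were lower and 0 did not pass the test. That is 53.3% and 46.7%, against 29.6% and 27.4% of all tested genes. The formyl peptide receptors *Fpr1* (3.49) and *Fpr2* (2.51), which sense bacterial peptides, and the chemerin-binding receptor *Ccrl2* (3.17) rose. *Cxcr4*, the receptor for CXCL12, had the largest fall of the list, from 6.16 and 6.13 in WT and 6.32 and 6.40 in S513A PECs to 1.97 and 1.82 in WT and 1.54 and 1.51 in S513A PECs. The 4 values at 4 hr lay close together, and its log2 fold change was -4.54 (SE 0.13, limma adjusted p = 7.31e-10), a 23.3-fold fall. The monocyte receptors *Ccr2* (-1.35) and *Ccr1* (-1.17) fell as well, while *Ccr7*, which guides cells to lymph nodes, rose (1.72).

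Interferon-stimulated genes rose without exception in the list used. Of 39 tested type I interferon-stimulated genes, 39 were higher, and in 39 the 4 hr libraries all lay above the 0 hr libraries. The median log2 fold change was 3.47, and 3.21 under total-read scaling, where again 39 were higher. *Ifit1*, which binds viral RNA without a host cap, had log2 CPM values of 2.28 and 2.31 in WT and 3.08 and 2.89 in S513A PECs at 0 hr, and 9.75 and 9.46 in WT and 9.96 and 10.45 in S513A PECs at 4 hr. This was a rise of 7.27 (SE 0.12, limma adjusted p = 3.4e-11) on the log2 scale, or 154-fold. The dynamin-like GTPase *Mx1* (6.99), *Ifit2* (6.88) and the DNA-binding family member *Ifi205* (6.84) were next. The ubiquitin-like modifier *Isg15* was at 2.67 to 3.63 log2 CPM at 0 hr and 8.85 to 10.17 at 4 hr, a log2 fold change of 6.29 (SE 0.17, limma adjusted p = 6.53e-10). The smallest rise of the list was in *Bst2* (tetherin, 1.25). Genes of the Ifi200 family are close copies, and the split of reads among them is uncertain.

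The guanylate-binding proteins and immunity-related GTPases, which attack vacuoles that hold microbes, rose in 14 of 14 tested genes, with a median log2 fold change of 3.75. Of all tested genes, 29.6% were higher. The count was partly set by the filter, since 17 genes were listed and *Iigp1*, *Tgtp1* and *Tgtp2* reached 1 CPM only in libraries at 4 hr. *Gbp5* had log2 CPM values of 0.88 and 1.08 in WT and 2.18 and 2.14 in S513A PECs at 0 hr, and 9.42 and 9.35 in WT and 9.75 and 9.92 in S513A PECs at 4 hr. The rise was 8.04 (SE 0.14, limma adjusted p = 4.82e-11) on the log2 scale. *Iigp1* (6.57), *Tgtp2* (5.98) and *Gbp3* (4.80) followed. Members of these families share long stretches of sequence, so single values, above all of *Tgtp1* and *Tgtp2*, are uncertain.

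Among IRF, STAT and SOCS genes, 24 were tested, of which 15 were higher, 3 were lower and 6 did not pass the test. The largest rises were in feedback inhibitors and a kinase of cytokine receptors, namely *Socs1* (4.69), *Socs3* (3.17) and *Jak2* (3.17). *Socs1* was at 0.51 to 1.22 log2 CPM at 0 hr and 5.24 to 5.72 at 4 hr (limma adjusted p = 3.73e-09). The transcription factor *Irf1* rose by 2.71. *Irf3*, the factor that TRIF signaling activates by phosphorylation, did not pass the test (0.14, limma adjusted p = 0.234). The receptor chain *Ifngr1* for interferon-γ fell (-0.91), whereas *Ifnar2* and *Ifnar1* of the type I interferon receptor rose (1.21 and 0.76). With total-read scaling this list had 11 higher and 6 lower.

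Immediate-early and lineage transcription factors moved both ways. Of 28 tested AP-1, Egr, Klf, Nr4a and related factors, 18 were higher, 7 were lower and 3 did not pass the test. The shares were 64.3% and 25.0%, against 29.6% and 27.4% of all tested genes. *Cebpa*, a factor of myeloid differentiation, was at 8.49 and 8.21 in WT and 8.22 and 8.36 in S513A PECs at 0 hr, and 6.77 and 6.76 in WT and 6.73 and 6.59 in S513A PECs at 4 hr. Its log2 fold change was -1.61 (SE 0.09, limma adjusted p = 7.95e-08), while its relatives *Cebpb* (1.26) and *Cebpd* rose, where *Cebpd* was at 3.97 to 4.46 log2 CPM at 0 hr and 6.06 to 6.64 at 4 hr. Rises were also seen in *Batf2* (3.26) and *Maff* (2.31), and the orphan receptor *Nr4a3* had 0 to 3 reads per library at 0 hr and 16 to 33 at 4 hr. *Fos* and *Egr2*, immediate-early genes that peak within the first hour of a stimulus, were lower at 4 hr than at 0 hr (-1.99 and -1.63), as was *Jun* (-1.11). *Egr1* was higher (1.19). The dual-specificity phosphatases, which switch off MAP kinases, split as well, with 5 of 10 higher and 4 lower. *Dusp16* (1.96) and *Dusp4* (1.56) rose, *Dusp3* (-0.84) and *Dusp7* (-0.83) fell, and *Dusp1*, the best-known brake on p38, rose by 0.47.

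Regulators of mRNA decay include the gene that was edited in these mice. *Zc3h12a* (Entrez gene 230738; chromosome 4, 125118414 to 125127881), which encodes Regnase-1, had log2 CPM values of 5.39 and 5.20 in WT and 4.99 and 5.09 in S513A PECs at 0 hr, and 7.90 and 8.11 in WT and 7.98 and 7.87 in S513A PECs at 4 hr. Both genotypes rose to a similar level, and the log2 fold change was 2.80 (SE 0.09, limma adjusted p = 1.52e-09), or 6.96-fold. The edit changes 1 amino acid, so the level of this mRNA does not check the labels of genotype. Of its relatives, *Zc3h12c* (Regnase-3) rose (3.14) and *Zc3h12d* (Regnase-4) fell (-1.99). *Zfp36* (tristetraprolin), which binds AU-rich elements, rose by 0.83, and its relatives *Zfp36l1* (-2.09) and *Zfp36l2* (-0.98) fell. *Arid5a*, which protects *Il6* mRNA from Regnase-1, rose by 1.05. *Rc3h1* (Roquin-1) rose by 0.35 with overlapping libraries, and was not called under total-read scaling (0.09) or quantile normalization (0.17). In all, of 16 tested regulators 7 were higher, 3 were lower and 6 did not pass the test, against 5 higher and 6 lower under total-read scaling. The shares of 43.8% and 18.8% compare with 29.6% and 27.4% of all tested genes. The 10 mRNAs that the study names as Regnase-1 targets all rose, with a median log2 fold change of 6.78, from *Nfkbid* (0.64) and *Mafk* (1.01) up to *Il12b*. The list was taken from targets that the study names and marks in its plots of these samples, so the count is not independent evidence of a direction. The 14-3-3 genes, whose products bind phosphorylated proteins, had small changes, with 3 of 7 higher (*Ywhaz*, 0.51; *Ywhae*, 0.47; *Ywhab*, 0.27) and *Ywhah* lower (-0.37). These calls depended on the scaling, with 2 higher and 1 lower under total-read scaling and 0 higher and 2 lower under quantile normalization, where *Ywhab* was at -0.11.

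Genes that make inflammatory mediators from lipids, arginine and citrate changed strongly. *Ptgs2* (chromosome 1, 150100031 to 150108234), the inducible cyclooxygenase of prostaglandin synthesis, had log2 CPM values of 2.25 and 1.53 in WT and 2.26 and 2.17 in S513A PECs at 0 hr, and 9.28 and 9.59 in WT and 9.57 and 9.52 in S513A PECs at 4 hr. The groups were well apart, with a log2 fold change of 7.44 (SE 0.15, limma adjusted p = 6.98e-11). *Ptges*, the synthase of prostaglandin E2, rose by 3.34, while the constitutive *Ptgs1* and the prostaglandin D2 synthase *Hpgds* fell (-1.80 and -2.27). *Nos2* (chromosome 11, 78920787 to 78960226), the inducible nitric oxide synthase, had 0 and 3 reads in WT and 0 and 0 in S513A PECs at 0 hr and 144 and 240 reads in WT and 154 and 154 in S513A PECs at 4 hr. The ratio of reads between the times was 285, with a 95% counting interval of 97.1 to 1390, and its mean level at 4 hr was 4.06 log2 CPM. *Acod1*, which makes itaconate, was already at 7.01 and 6.67 in WT and 7.35 and 7.40 in S513A PECs at 0 hr. At 4 hr it was at 12.27 and 12.17 in WT and 12.31 and 12.27 in S513A PECs, and its log2 fold change was 5.15 (SE 0.12, limma adjusted p = 2.08e-10). The arginine transporter *Slc7a2* rose by 4.30 and *Arg1* fell by 1.54, with overlapping libraries. Of the 18 tested genes of these pathways, 11 were higher, 6 were lower and 1 did not pass the test. Leukotriene genes went the other way, with 5 of 8 lower and 1 higher. *Alox5*, the first enzyme of the leukotriene path, had a log2 fold change of -1.50 (SE 0.16, limma adjusted p = 1.4e-05), and *Lta4h* (-1.08), *Alox5ap* (-0.55) and *Ephx1* (-0.51) also fell.

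Inflammasome and cell death genes rose more often than they fell. Of 30 tested, 19 were higher, 6 were lower and 5 did not pass the test. *Nlrp3*, the sensor of the best-known inflammasome, was at 4.73 and 4.58 in WT and 4.46 and 4.62 in S513A PECs at 0 hr, and 8.64 and 9.02 in WT and 8.79 and 8.57 in S513A PECs at 4 hr. The difference was 4.16 (SE 0.10, limma adjusted p = 3.12e-10) on the log2 scale. *Nlrp1b*, another sensor, fell by 3.31 on the log2 scale, and the adaptor *Pycard* fell (-0.83), whereas *Casp4* (2.38) and *Casp1* (1.17) rose. The anti-apoptotic *Bcl2a1a* and *Bcl2a1d* rose by 3.42 and 3.40, but these genes are near-identical copies and their reads cannot be assigned with certainty. *Cflar*, an inhibitor of caspase-8, rose by 2.87, and *Bcl2* fell (-0.90).

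Most tested genes of the class I path of antigen presentation rose. Of 23 tested genes of class I presentation and the immunoproteasome, 18 were higher, 0 were lower and 5 did not pass the test, against 17 higher and 2 lower under total-read scaling and 16 higher and 4 lower under quantile normalization. The peptide transporter *Tap1* rose by 2.91, and *Nlrc5*, the class I transactivator, by 2.88. The immunoproteasome subunits *Psmb9* (1.32), *Psmb10* (1.30) and *Psmb8* (1.06) rose together, and the values for *H2-Q6* (2.31) and *H2-Q4* (1.95) are uncertain because class I genes share sequence. Of 9 tested class II genes, 2 were higher, 2 were lower and 5 did not pass the test, and the counts were 1 higher and 3 lower under total-read scaling and 0 higher and 1 lower under quantile normalization. The shares of 22.2% in each direction compare with the 29.6% higher and 27.4% lower of all tested genes. *Ciita* (-0.51) and *H2-DMa* (-0.75) fell, and *Cd74* (0.51) and *H2-Ab1* (0.66, with overlapping libraries) rose. Costimulatory and checkpoint genes had the larger changes, with 11 of 16 higher and 4 lower. *Cd40*, the receptor for CD40 ligand on T cells, was at 3.03 and 3.14 in WT and 3.34 and 3.62 in S513A PECs at 0 hr, and 8.61 and 8.31 in WT and 8.89 and 9.08 in S513A PECs at 4 hr. On the log2 scale the rise was 5.44 (SE 0.10, limma adjusted p = 6.08e-11). *Icosl* (4.12) and the adhesion molecule *Icam1* (3.22) rose, and the checkpoint receptors *Havcr2* (TIM-3, -3.28) and *Vsir* (VISTA, -2.69) fell.

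Genes that mark macrophages moved both ways or were not called. Of 22 tested genes of macrophage identity, 5 were higher, 6 were lower and 11 did not pass the test, shares of 22.7% and 27.3% that are near the 29.6% and 27.4% of all tested genes. The list had 5 higher and 12 lower under total-read scaling and 4 higher and 11 lower under quantile normalization. *Csf1r* (-0.17), *Cd68* (-0.20) and *Lyz2* (-0.06) did not pass the test, but *Csf1r* and *Cd68* were called lower under total-read scaling and under quantile normalization. The *Cd68* libraries at 4 hr all lay below those at 0 hr. *Cd68* was also called lower with median-ratio scaling, voom weights, a filter at a mean of 5 CPM and all 12 libraries in the fit. *Adgre1* (F4/80) rose by 0.87. *Spi1* (PU.1) rose (1.17) and the Fc receptor *Fcgr3* fell (-1.42). Uptake receptors were more often lower, with 12 of 21 tested scavenger and apoptotic-cell receptors lower and 7 higher. The share lower was 57.1%, against 27.4% of all tested genes, and the share higher 33.3%, near the 29.6% of all tested genes. *Axl* (2.56), the scavenger receptor *Olr1* (2.51) and *Clec4e* (2.46) rose. *Clec10a* (-2.01) and the mannose receptor *Mrc1* (-0.78) fell, and the hyaluronan receptor *Stab2* had 7 to 18 reads per library at 0 hr and 0 to 3 at 4 hr. Of 11 complement genes, 3 rose, among them *C3* (1.40) and *Cfb* (1.14), and 4 fell, among them the C1q chains *C1qc* (-0.74) and *C1qb* (-0.58, with overlapping libraries). These shares of 27.3% and 36.4% compare with 29.6% and 27.4% of all tested genes, and the counts were 2 higher and 5 lower under total-read scaling and 3 higher and 6 lower under quantile normalization. In the list of matrix and coagulation genes, of 21 tested 12 were higher, 7 were lower and 2 did not pass the test. That is 57.1% and 33.3%, against 29.6% and 27.4% of all tested genes. Under total-read scaling 12 were higher and 9 lower. The plasminogen activator inhibitor *Serpinb2* (3.41) and the collagenase *Mmp13* (2.54) rose, and *Thbd* (thrombomodulin, an anticoagulant) fell by 3.23 on the log2 scale (limma adjusted p = 8.13e-09).

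**Figure D4:**
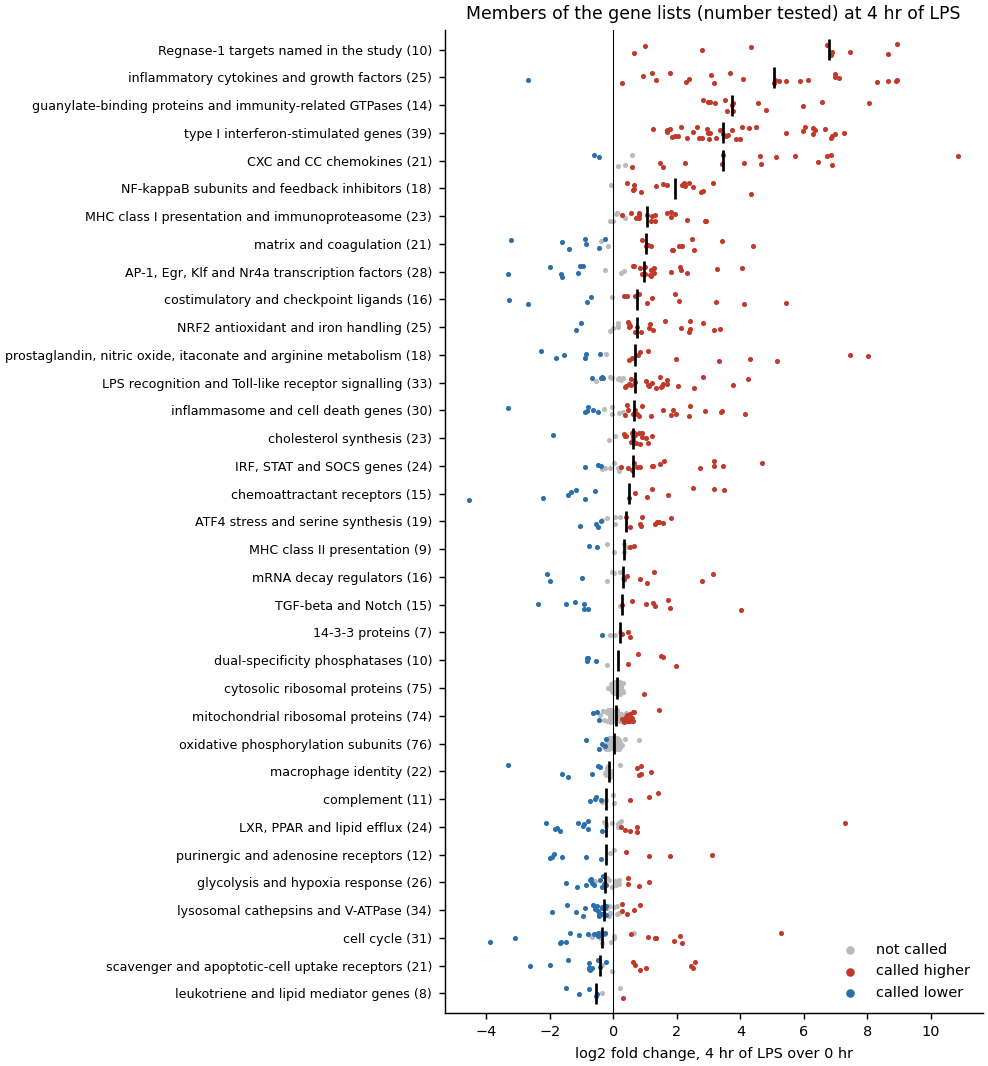
Log2 fold change at 4 hr of LPS over 0 hr (horizontal axis) for each tested member of the 35 gene lists, ordered by the list median (black bars), with the number tested in brackets. Red and blue points passed the test as higher and lower and grey points did not; the medians run from 6.78 for the Regnase-1 targets and 5.06 for cytokines down to -0.53 for leukotriene genes, with ribosomal proteins at 0.12, which becomes -0.13 under total-read scaling.

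Metabolic genes split by pathway. Of 26 tested genes of glycolysis and the hypoxia response, 4 were higher, 12 were lower and 10 did not pass the test. The shares were 15.4% and 46.2%, against 29.6% and 27.4% of all tested genes. Under total-read scaling 3 were higher and 15 lower. *Hif1a* (0.79), the phosphofructokinase *Pfkp* (1.13) and *Hk2* (0.47) rose, but *Pdk1* (-1.50), *Aldoc* (-0.87) and *Tpi1* (-0.70) fell, and *Ldha* (-0.27) did not pass the test. The *Ldha* libraries at 4 hr all lay below those at 0 hr. It was called lower under total-read scaling, quantile normalization, median-ratio scaling, voom weights and a replicate block. The cholesterol synthesis genes rose nearly as a block, with 20 of 23 higher, a median log2 fold change of 0.63 and 16 higher under total-read scaling. *Hsd17b7*, an enzyme of the later steps, was at 6.43 and 6.66 in WT and 6.49 and 6.19 in S513A PECs at 4 hr, all above the unstimulated libraries. Its mean at 0 hr was 5.21 log2 CPM, and it rose by 1.23. *Dhcr7*, which makes the last step to cholesterol, was the only one that fell, with a log2 fold change of -1.89 (SE 0.10, limma adjusted p = 5.12e-08). Genes of cholesterol export and fatty-acid sensing had 10 of 24 lower (41.7%) and 6 higher (25.0%), against 27.4% and 29.6% of all tested genes, and 3 higher and 13 lower under total-read scaling and 2 higher and 13 lower under quantile normalization. *Pparg* (-2.13), the exporter *Abcg1* (-1.85) and the fatty-acid carrier *Fabp4* (-1.78) fell, while the exporter *Abca1* rose (0.75, with overlapping libraries). *Ch25h*, which makes 25-hydroxycholesterol, had 2 reads in the unstimulated libraries together and 389 at 4 hr, a ratio of 240 with a 95% counting interval of 66.1 to 1990.

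Lysosomal genes were mostly lower. Of 34 tested lysosomal cathepsins, V-ATPase subunits and related genes, 5 were higher, 20 were lower and 9 did not pass the test, and 2 higher and 25 lower under total-read scaling. *Atp6v0d2*, a subunit of the proton pump, was at 9.62 and 9.87 in WT and 10.05 and 10.04 in S513A PECs at 0 hr, and 8.15 and 7.55 in WT and 7.95 and 8.22 in S513A PECs at 4 hr. Its log2 fold change was -1.93 (SE 0.13, limma adjusted p = 4.41e-07), and *Atp6v0a1* (-1.45), *Atp6v1b2* (-0.95) and the lysosomal transcription factor *Tfeb* (-1.16) also fell. *Ctsd*, a protease at 14340 CPM before stimulation, was at 9273 CPM at 4 hr. Antioxidant and iron genes rose in 18 of 25 cases and fell in 2. The siderophore-binding *Lcn2* rose by 3.35, the cystine transporter *Slc7a11* by 3.18, the zinc and iron importer *Slc39a14* by 2.82, the metallothionein *Mt2* by 2.43 and the mitochondrial dismutase *Sod2* by 2.42. The transferrin receptor *Tfrc* (-1.17) and the iron exporter *Slc40a1* (ferroportin, -1.03) fell. Of 19 genes of the ATF4 stress response and serine synthesis, 10 were higher and 4 lower, with *Nupr1* (1.82), *Phgdh* (1.56), *Slc3a2* (1.43) and *Mthfd2* (1.36) rising most and *Trib3* falling (-1.04). The shares of 52.6% and 21.1% compare with 29.6% and 27.4% of all tested genes, and 9 were higher and 6 lower under total-read scaling.

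Few genes of protein synthesis and respiration were called. Of 75 cytosolic ribosomal proteins, 1 (*Rpl24*, 0.98, with overlapping libraries) was higher and 0 were lower, and *Rps6* (0.30), *Rps9* (0.30) and *Rpl27* (0.29) did not pass the test. Their median log2 CPM per library varied between replicates, from 7.65 in the first WT library at 0 hr to 8.83, and from 7.97 in the second WT library at 4 hr to 8.95. Of 76 subunits of oxidative phosphorylation, 0 were higher and 5 lower, among them *Sdhb* (-0.45) and *Cox7a2l* (-0.35), both with overlapping libraries, while *Uqcrfs1* (0.36) and *Ndufs7* (-0.29) did not pass the test. The library medians of that list ran from 5.89 to 6.89 at 0 hr and from 5.91 to 6.87 at 4 hr, again lowest in these same libraries. The part of this spread in the few calls of both lists was not tested, and the counts moved with the scaling. Subunits of oxidative phosphorylation had 0 higher and 21 lower under total-read scaling and 0 higher and 12 lower under quantile normalization, and ribosomal proteins had 1 higher and 2 lower under total-read scaling and 1 higher and 13 lower under quantile normalization. Mitochondrial ribosomal proteins had 16 of 74 higher and 3 lower, against 4 higher and 17 lower under total-read scaling, so their direction turned with the scaling. The largest rise in that list was *Mrpl39* (1.42), followed by *Mrpl27* (0.64) and *Mrpl52* (0.63), and *Mrpl41* fell (-0.63), where the last 3 had overlapping libraries.

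Cell cycle genes also split. Of 40 listed, 31 passed the filter, of which 8 were higher, 13 were lower and 10 did not pass the test, or 25.8% and 41.9% against 29.6% and 27.4% of all tested genes. The counts were 8 higher and 18 lower under total-read scaling and 8 higher and 14 lower under quantile normalization. *Ccnd2* (cyclin D2) was at -0.32 and 0.05 in WT and 0.01 and -0.87 in S513A PECs at 0 hr, and 4.94 and 5.07 in WT and 5.14 and 4.87 in S513A PECs at 4 hr. The groups did not overlap, and the rise was 5.29 (SE 0.20, limma adjusted p = 6.28e-09) on the log2 scale. The inhibitor *Cdkn1a* (p21, 1.92) and *Mki67* (2.17) rose, and *E2f2* (-3.88), the centromere histone *Cenpa* (-3.11) and the helicase subunit *Mcm2* (-1.68) fell. Of 12 purinergic and adenosine receptors and ectonucleotidases, 4 were higher, 6 were lower and 2 did not pass the test. The adenosine receptor *Adora2a*, which raises cyclic AMP, was at 3.64 to 4.11 log2 CPM at 0 hr and 6.91 to 7.15 at 4 hr, a log2 fold change of 3.10 (SE 0.10, limma adjusted p = 1.33e-09). *Adora2b* rose by 1.77, whereas the UDP receptor *P2ry6* (-2.01) and the ectonucleotidases *Entpd1* (CD39, -1.93) and *Nt5e* (CD73, -1.88) fell. Of 15 TGF-β and Notch genes, 8 were higher (53.3%), 6 were lower (40.0%) and 1 did not pass the test. This compares with 29.6% and 27.4% of all tested genes, and 7 of the list were higher and 6 lower under total-read scaling. The Notch ligand *Jag1* (1.79), *Notch2* (1.73) and the Notch effector *Rbpj* (1.32) rose, and the TGF-β receptor *Tgfbr2* (-1.50) and its effector *Smad3* (-2.38) fell. A further Notch ligand, *Dll1*, had 0 to 1 reads per library at 0 hr and 3 to 13 at 4 hr.

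The 10 largest falls were in genes with roles outside the lists, except *Cxcr4*. *Arhgap19*, a GTPase-activating protein for RhoA, fell most, from 6.31 and 6.27 in WT and 6.35 and 6.17 in S513A PECs to 0.78 and 1.11 in WT and 0.78 and 0.42 in S513A PECs. Its 8 values formed tight groups, and the log2 fold change was -5.50 (SE 0.13, limma adjusted p = 2.9e-10), a 45.3-fold fall. *Bmf*, a pro-apoptotic BH3-only protein, had 210 and 167 reads in WT and 128 and 111 in S513A PECs at 0 hr and 3 and 16 reads in WT and 6 and 0 in S513A PECs at 4 hr. Its log2 fold change was -5.03 (SE 0.71, limma adjusted p = 0.000131), with few reads at 4 hr. *Fbxo32*, which encodes the ubiquitin ligase subunit atrogin-1, had a log2 fold change of -4.42 (SE 0.17, limma adjusted p = 5.27e-09). *Lpin1*, which encodes a phosphatidate phosphatase, had one of -4.44 (SE 0.17, limma adjusted p = 7.78e-09). *St6gal1*, a sialyltransferase, was at 1.68 and 1.75 in WT and 1.96 and 0.29 in S513A PECs at 4 hr and fell by 4.46. *Cd28*, best known as the costimulatory receptor of T cells, had 115 and 111 reads in WT and 97 and 98 in S513A PECs at 0 hr and 8 and 4 reads in WT and 2 and 4 in S513A PECs at 4 hr. This fall of 4.23 on the log2 scale stands beside T and NK cell markers at 1.12 to 2.08 CPM at 0 hr, of which 9 of 11 were not listed. *Zfp395* (-4.83), *Fhdc1* (-4.85) and *Tcp11l2* (-4.22) complete the set.

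Of the 10 largest rises, 8 are named above. The other two were *Shisa3*, an inhibitor of Wnt and FGF receptor maturation, and *Plet1*, a surface protein of epithelial progenitors. *Shisa3* had 0 reads in all 4 unstimulated libraries and 98 and 94 reads in WT and 112 and 80 in S513A PECs at 4 hr. Against the floor of 3 reads in the shallowest unstimulated library, it was at least 30.7-fold higher. *Plet1* had 8 reads in the unstimulated libraries together and 1475 at 4 hr, a ratio of 228 with a 95% counting interval of 115 to 529.

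The response was then compared between genotypes. In WT cells alone, 38.3% of the tested genes changed between 0 and 4 hr, 2464 upward and 2043 downward. In S513A cells alone, 40.6% changed, 2527 upward and 2245 downward. Of the genes that rose in WT cells, 2208 were also called in S513A cells, which is 89.6% of the WT and 87.4% of the S513A calls, and of those that fell 1777 were shared, 87.0% and 79.2%. The 1280 genes changed beyond 2-fold in both genotypes together had the same sign in each genotype, and in 1206 of them (94.2%) the genotypes differed by less than 1 on the log2 scale. These genes were chosen by their change over both genotypes, so a shared sign was largely set by that choice. Neither figure tests whether the responses were alike. The test of the difference itself, the interaction of genotype and LPS, called 0 genes (0.0%) with limma, and 0 with voom weights. At an unadjusted p below 0.05 there were 106 genes (0.901%), which is below the share that this threshold gives when no gene differs. The interaction test was thus conservative here, for a cause that was not tested, and its 0 calls do not show that the genotypes responded alike. The median standard error of this interaction was 0.26, against 0.12 for the response over both genotypes, so smaller differences between genotypes were not detectable with 2 libraries a group. *Il6* rose by 8.58 in WT and 8.73 in S513A cells, *Il12b* by 9.16 and 8.70, *Ptgs2* by 7.54 and 7.33, *Nfkbiz* by 4.29 and 4.40, and *Zc3h12a* by 2.71 and 2.88. Their interaction standard errors were 0.87, 0.32, 0.31, 0.23 and 0.18. The only gene called in opposite directions was *H2-Q1*, a class I gene named after its values were seen, with 8 and 27 reads in WT and 3 and 1 in S513A PECs at 0 hr and 2 and 0 reads in WT and 45 and 20 in S513A PECs at 4 hr. Its interaction had a limma adjusted p of 1.00, and reads on such close copies are uncertain. Without the first or second WT library at 0 hr, the WT count of changed genes fell from 4507 to 2776 or 2829, and without the first or second S513A library at 0 hr the S513A count fell from 4772 to 2908 or 3037.

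**Figure D5:**
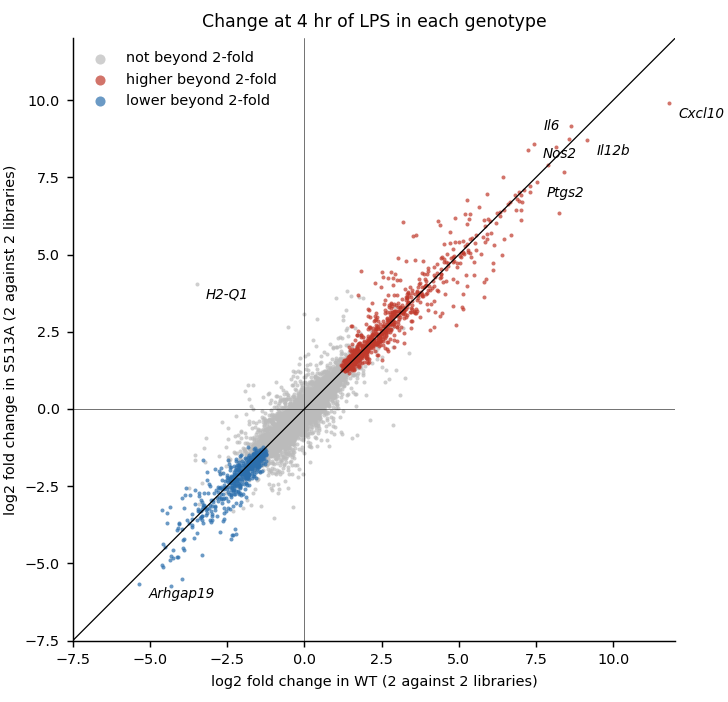
Log2 fold change at 4 hr of LPS in WT (horizontal axis) and in S513A PECs (vertical axis), each from 2 against 2 libraries, for the 11763 tested genes, with the line of equal change. Red and blue points are the genes higher and lower beyond 2-fold over both genotypes, which lie along the line from *Arhgap19* at the lower left to *Cxcl10* at the upper right; *H2-Q1* lies apart at -3.48 in WT and 4.05 in S513A.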

How the data were processed

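RNA-seq libraries of WT and S513A PECs at 0 and 4 hr of LPS, 2 per group, were compared. The authors mapped paired-end reads as unstranded on mm10 with HISAT2 and counted them per gene with featureCounts 1.6.3. The deposited values are log2 CPM, and the authors' normalization program, gene annotation and filter are not given in the sources used here. The values fit a log2 of reads plus 0.5 over an adjusted library size, and reads computed back from them departed from whole numbers by at most 0.00145. Reads per library ranged from 9812085 to 12439960, which sets the precision of low values. Without strand, reads of overlapping or antisense genes cannot be told apart.

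Genes that reached 1 CPM in 2 or more of the 8 libraries entered limma 3.58.1 in R 4.3.3, fitted to the deposited values (terms for genotype and time, 5 residual degrees of freedom, a prior that follows the mean). A change beyond 2-fold was tested with limma's treat. Each genotype and the interaction were tested in a model with a mean per group. Tests were two-sided, with Benjamini-Hochberg adjustment over all genes tested and a threshold of 0.05. Fold changes are differences between means of the log2 of (reads plus 0.5). For genes with few reads at a time, their size is uncertain and can be too small or too large. The fit was tested on simulated data. Gene positions came from the GRCm38 RefSeq table, in which 98.4% of tested genes were matched by identifier, and promoter windows from RefSeq on GRCm38.p6. Tables and plots were made with Python 3.11.15, pandas 2.3.3 and matplotlib 3.10.9.

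The comparison, the 35 gene lists and the alternatives were chosen with earlier results of these data known. Genes were named by rule: the 10 largest rises and 10 largest falls among called genes whose times do not overlap and whose higher group mean reaches 3 log2 CPM, the 5 largest gains and 5 largest losses in CPM, up to 4 members per list with the largest change, and *Il6*, *Tnf*, *Il1b*, *Il12b*, *Ptgs2*, *Nfkbiz*, *Zc3h12a*, *Tlr4* and *Cd14*. Some genes that the rule names are not reported here. All other genes were named after their values were seen. The alternatives were no filter, a filter at a mean of 5 CPM, a filter over 12 libraries, a further pseudocount of 1 CPM, median-ratio scaling, quantile normalization, all 12 libraries in the fit, no genotype term, a replicate block, no trend, a robust prior, voom weights and each library left out. Total-read scaling was added after seeing the data. Libraries at 8 hr entered only the filter and the fit over 12 libraries.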

Additional observations from a re-analysis of the deposited data

How the results depend on the processing

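Over the alternatives that keep all 8 libraries, between 5512 and 7174 genes changed. Under total-read scaling, added after seeing the data, 2187 were higher and 4987 lower. These 2187 were all among the 3482 called higher, and the 3227 called lower were all among the 4987. Leaving out 1 library at a time gave 5953 to 6988 changed genes, 3131 to 3597 higher, 2822 to 3391 lower and 1133 to 1291 beyond 2-fold. The counts by genotype ranged from 2776 to 4896 in WT and from 2908 to 5731 in S513A, lowest without an unstimulated library of the same genotype, which leaves a lone library assumed to vary like the other groups. The interaction called 0 genes under every alternative. Of 235 called genes that were followed across settings, 18 lost their call or direction under at least 1 of the 12 other settings that keep all libraries, 9 when a library was left out and 8 under total-read scaling. Under quantile normalization *Ywhab* turned from 0.27 to -0.11. The causes of these shifts were not tested. For genes with 3 reads or fewer in every library of a time, depth limits the fold, and reads or a ratio with its counting interval are given. The labels do not say whether libraries with the same replicate number share an origin, and the main fit treated them as unpaired. Deviations of same-numbered libraries at the 2 times correlated at r = -0.05 in WT and 0.15 in S513A. With 2 libraries a group, these values cannot decide whether the libraries were paired. With a replicate block, 6716 genes changed, 4075 in WT and 4309 in S513A.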

Other observations

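The genes here were all chosen after their values were seen, and their values stand for no group. Of 11 genes of the circadian clock, *Tef* (-1.29), *Per2* (-1.27), *Per1* (-1.02), *Nr1d2* (-0.95) and *Per3* (-0.69) and the output regulator *Dbp* were lower at 4 hr, *Cry1* (0.76) and *Clock* (0.51) were higher, and *Arntl* (-0.03), *Cry2* (0.09) and *Nr1d1* (0.40) did not pass the test. *Nr1d1* was called higher under quantile normalization. *Dbp* had log2 CPM values of 2.67 and 2.78 in WT and 2.52 and 2.66 in S513A PECs at 0 hr, and -1.05 and -0.74 in WT and -0.64 and -1.30 in S513A PECs at 4 hr. It reached 1 CPM only in libraries at 0 hr, so that its difference was partly set by the filter.

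Other genes that rose were the activation marker *Cd69* (6.61), the niacin receptor *Hcar2* (4.89) and the fatty-acid receptor *Gpr84* (4.08), of which *Cd69* reached 1 CPM only in libraries at 4 hr. The histone demethylase *Kdm6b* (1.67) rose and the deacetylase *Hdac5* (-2.30) fell. Of genes often used as references, *Gapdh* (0.07) and *Hprt* (-0.05) did not pass the test and *Actb* (0.53) was called higher, but not under quantile normalization.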
